A study of Mus musculus with 8 samples.

Results

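Nuclear receptors are transcription factors of which many are switched on by small fat-soluble ligands such as bile acids, oxysterols, retinoic acid, thyroid hormone and steroids. In hepatocytes they set the expression of genes for bile acid synthesis, drug metabolism, lipid handling and gluconeogenesis. Several bind DNA as a pair with a retinoid X receptor (RXR), so that the level of this partner is shared between pathways. Their mRNA levels were followed in mouse liver with and without HRD1, an E3 ubiquitin ligase of the endoplasmic reticulum that is listed in the files under its gene symbol Syvn1. The 37 nuclear receptor genes described were chosen by symbol, leaving out Ppara, Pparg and the Nr1d pair, from 23337 gene symbols, and all 37 were present in each of the 8 count files. Of these, 34 had 10 or more counts in at least 2 samples and were tested with the other genes that passed, 14379 genes in all. The remaining receptors were near the detection limit: Vdr, the vitamin D receptor, reached at most 7 counts in a sample, Pgr, the progesterone receptor, at most 1, and Nr4a3 at most 11, with 10 or more in 1 sample.

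Livers came from C57BL/6 mice aged 12 weeks, either WT or HRD1Alb, in which a Cre transgene driven by the albumin promoter deletes floxed HRD1 in hepatocytes from early liver development on. All were fasted overnight, and part of each genotype received food again for 4 h before sampling. This gave 4 groups of 2 samples, WT fasted, HRD1Alb fasted, WT refed and HRD1Alb refed. Sex is not in the labels. The controls of these samples are labelled WT, while control mice elsewhere in the study carried the floxed alleles without Cre. Nothing states that the 2 samples of a group were separate animals, so that p-values measure only the spread between these samples.

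Total counts ranged from 40210576 to 49117080 per sample. Levels are given as CPM, counts scaled to a common library size after normalisation, on which 3 counts corresponded to between 0.0508 and 0.0788 CPM. Syvn1 was at 111 and 99.8 CPM in WT fasted, 32.6 and 31.5 in HRD1Alb fasted, 637 and 305 in WT refed, and 453 and 132 in HRD1Alb refed livers. The refed genotypes overlapped for this gene and no genotype difference passed an adjusted p of 0.05 (edgeR adjusted p = 0.17 fasted and 0.389 refed). With refeeding Syvn1 rose past this threshold in HRD1Alb livers, by 3.19 on the log2 scale. The paper reports that HRD1 mRNA and protein were lost from HRD1Alb liver. Counts over the whole gene mix deleted and retained exons, so that these values are only a partial check of the labels. The marker list of hepatocytes (9 measured genes, led by Alb) summed to between 114644 and 156895 CPM in WT and between 72456 and 119236 CPM in HRD1Alb livers, and that of macrophages to between 132 and 148 against between 337 and 718 CPM. Stellate cell markers summed to between 260 and 551 CPM in WT and between 590 and 680 CPM in HRD1Alb livers, with no marker of these 3 lists at 0 in any sample, although the hepatocyte marker Ass1 was listed at no more than 2.68 CPM. All 10 macrophage markers rose over both feeding states at an adjusted p under 0.05 in edgeR, where 11.3% of all genes tested did. Most of them also passed with any one library left out. Of the stellate cell markers 9 of 11 rose. Fewer did so without WT fasted replicate 1, either HRD1Alb fasted or either WT refed library, when smaller shares of all genes passed too. In bulk liver, fewer cells of a type and less RNA per cell cannot be told apart, and the part of cell composition in the results below was not tested.

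One library stood apart. In HRD1Alb refed replicate 2, the log2 ratio to replicate 1 fell with the exon length of the gene (Spearman's rho = -0.508 across 14227 genes, given as a description), whereas rho was between -0.115 and 0.00617 for the replicates of the other 3 groups. Among the 34 receptor genes rho was -0.671. Rora, which has 13071 bases of exon, was at 8.82 CPM in replicate 1 and 0.395 in replicate 2, and Nr2c2, with 14935 bases, was at 5.43 and 0.461 CPM. Between the 2 HRD1Alb refed samples 8 receptor genes differed at least 2-fold, beside 22.4% of all genes tested, compared with 1 or 2 receptor genes and between 2.98% and 8.03% of all genes in every other group. Counts of receptor genes called in contrasts with refed HRD1Alb livers are therefore given with and without this library. For each receptor gene past the threshold there, a value without it is also given. Many other values on these livers, such as those of Nr5a2, Nr2c2, Hnf4a and Rarb, are given only with it. Without this library the remaining HRD1Alb refed sample was assumed to vary like the other groups.

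**Figure D1:**
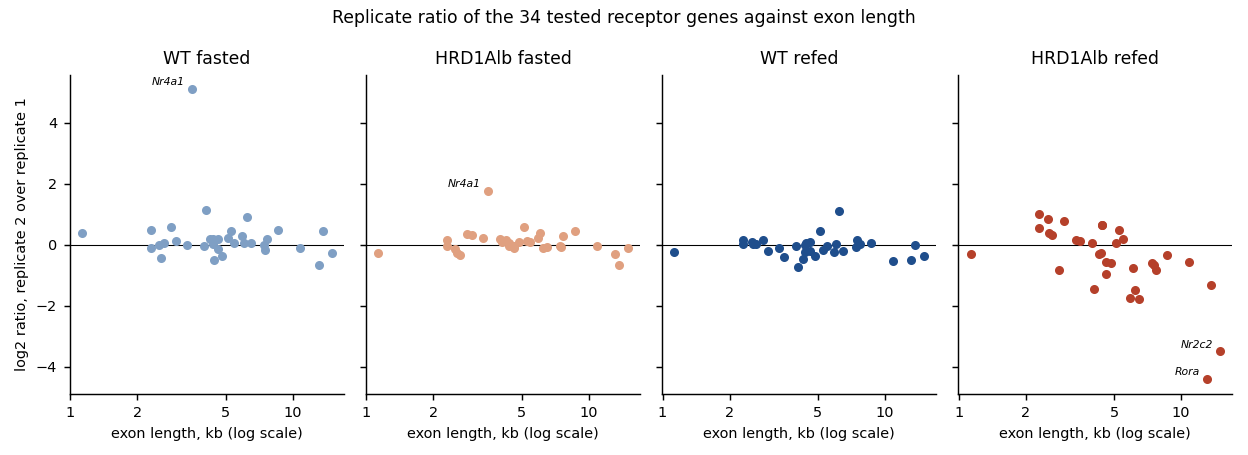
Log2 ratio of replicate 2 over replicate 1 (y axis) against exon length in kb (x axis, log scale) for the 34 tested receptor genes, 1 panel per group and 1 point per gene. In HRD1Alb refed livers the points fall with length (rho = -0.671) down to Nr2c2 and Rora. In the other panels most points scatter about 0, the furthest being Nr4a1 in fasted livers. Nr4a2 in WT fasted (1.13) and Esrrg in WT refed livers (1.12) also stand off.

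Per length of exon, the most abundant receptor mRNA was Hnf4a, a master regulator of hepatocyte identity, with a mean over 8 samples of 122 CPM per kb. It was followed by Nr1h4, the bile acid receptor FXR, at 87.8 CPM per kb, and Rxra, the main RXR of liver, at 72.4. Then came Nr1h3, the oxysterol receptor LXR alpha, at 51.6, Nr1i3, the xenobiotic receptor CAR, at 44.2, Nr2f6 at 35.2, Nr1i2, the xenobiotic receptor PXR, at 29.2 and Nr0b2, the repressor SHP, at 19.8 CPM per kb. The ranges over samples of neighbours in this order overlapped, from 70.2 to 168 CPM per kb for Hnf4a, 63.9 to 119 for Nr1h4 and 47.5 to 91.5 for Rxra, down to 22.8 to 37.9 for Nr1i2 and 10.5 to 32.0 CPM per kb for Nr0b2. Close relatives differed in level in some cases. Hnf4g averaged 0.123 CPM per kb beside 122 for Hnf4a, Thra, the other thyroid hormone receptor, 2.27 beside 5.27 for Thrb, and Esrrb 0.075 beside 10.3 for Esrra, an estrogen-related receptor of mitochondrial genes. Rarb and Rarg were close, at 1.76 and 1.70 CPM per kb. Nr3c1, the glucocorticoid receptor, was at 9.42 CPM per kb and Nr3c2, the mineralocorticoid receptor, at 0.96. Hnf4g, Esrrb, Nr4a2 and Nr2f1 were the lowest of the tested members, at most 0.142 CPM per kb.

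**Figure D2:**
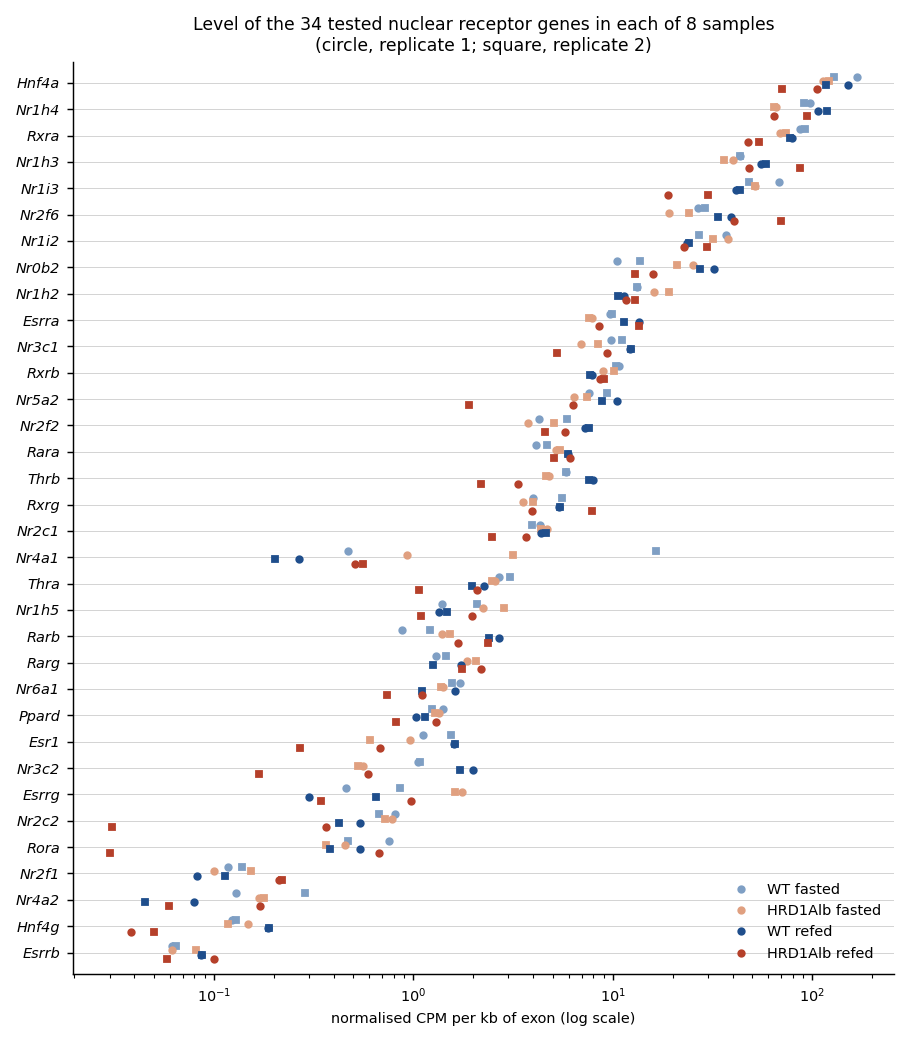
Level of each tested receptor gene in normalised CPM per kb of exon (x axis, log scale), 1 row per gene ordered by its mean, with 8 samples coloured by group (circles, replicate 1, squares, replicate 2). The genes span from Hnf4a at 122 to Esrrb at 0.075 CPM per kb, and the squares of HRD1Alb refed livers lie far to the left for Nr2c2, Rora and Nr5a2.

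Promoter windows from RefSeq (GRCm38.p6) were found for 34 of the 37 genes, in 52 windows, and the 250 bases before each start were searched on both strands beside those of 32851 windows in all. The 3 promoters shown belong to members whose levels moved with feeding in WT livers or varied most there, with matches in capitals. In Rarb, the retinoic acid receptor beta, the capitals mark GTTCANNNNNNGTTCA, the letters of the repeat through which retinoic acid is known to induce this gene, at -52 to -37 from the start. Only 0.067% of all windows held these letters. In Nr4a1, an immediate-early gene, the capitals mark TGCGTCA, a short form of the cyclic AMP response element, which occurred 4 times in its window and at least once in 1.75% of all windows. In Nr0b2 they mark CACGTG, an E-box, held by 6.02% of all windows.
Rarb, chr14:16575477-16575726, minus strand: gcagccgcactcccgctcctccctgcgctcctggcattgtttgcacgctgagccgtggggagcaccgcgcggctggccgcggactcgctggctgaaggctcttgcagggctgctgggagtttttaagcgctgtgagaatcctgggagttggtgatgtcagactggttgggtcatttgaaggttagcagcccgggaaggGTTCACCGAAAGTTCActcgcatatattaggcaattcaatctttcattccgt
Nr4a1, chr15:101266596-101266845, plus strand: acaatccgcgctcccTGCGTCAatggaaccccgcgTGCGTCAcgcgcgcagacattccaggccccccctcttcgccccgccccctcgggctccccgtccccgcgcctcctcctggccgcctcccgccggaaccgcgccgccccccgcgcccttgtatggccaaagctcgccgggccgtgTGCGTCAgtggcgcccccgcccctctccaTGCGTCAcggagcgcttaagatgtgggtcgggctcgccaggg
Nr0b2, chr4:133553126-133553375, plus strand: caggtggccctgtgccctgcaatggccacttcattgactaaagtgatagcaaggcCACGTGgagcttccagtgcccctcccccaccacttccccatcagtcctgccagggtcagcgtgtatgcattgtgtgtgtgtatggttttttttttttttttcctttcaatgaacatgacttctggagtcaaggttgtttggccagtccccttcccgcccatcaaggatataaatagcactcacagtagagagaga
The nuclear receptor half-site AGGTCA, which is also part of the longer repeats searched, was in 7 of the 52 windows of receptor genes (13.5%) and in 14% of all windows. Its direct repeats AGGTCANAGGTCA, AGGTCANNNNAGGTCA and AGGTCANNNNNAGGTCA and inverted repeat AGGTCANTGACCT were in none of the 52. They were in 0.0335%, 0.0152%, 0.00913% and 0.00609% of all windows, too rare for their absence from 52 to be informative. The full cyclic AMP element TGACGTCA and the monomer site TCAAGGTCA were also in 0 of the 52 (1.55% and 0.387% of all windows), and AAAGGTCA was in 2 (1.34% of all windows). A match describes letters in a window, not a bound site.

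The comparison of genotypes asked which receptor mRNAs depend on hepatocyte HRD1. In refed livers 6 of the 34 receptor genes were lower in HRD1Alb than in WT mice and none was higher, at an adjusted p under 0.05 over all genes tested: Thrb, Nr3c2, Esr1, Rxra, Hnf4g and Nr0b2. Over all genes tested 4.84% were lower and 7.06% were higher in this comparison. The median log2 fold change of the receptor genes was -0.36, compared with 0.05 for all genes, and 22 of 34 were negative. In fasted livers no receptor gene passed the test in edgeR (0.431% of all genes were lower and 0.904% higher), and 4 had an unadjusted p under 0.05 beside 18.4% of all genes. DESeq2 called 1, Nr0b2 (3.21% of all genes were lower and 4.35% higher). The fasted median was -0.19 beside -0.02 for all genes.

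**Figure D3:**
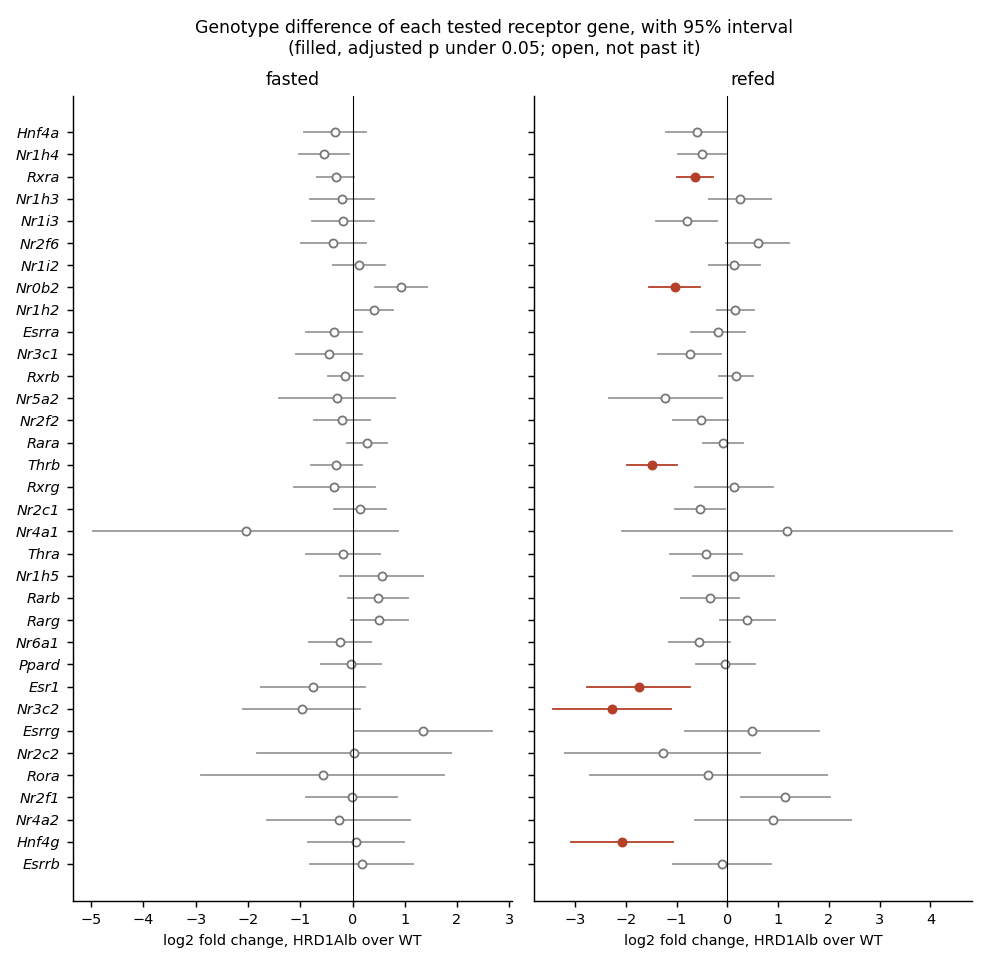
Log2 fold change of HRD1Alb over WT livers (x axis) for each tested receptor gene (rows, ordered by level per kb) in fasted (left) and refed mice (right), with 95% intervals from the edgeR fit. The 6 filled points, all on the lower side and all in refed livers, have an adjusted p under 0.05.

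The count in refed livers depended on which libraries were in the fit, while the 6 directions held in all 16 alternatives. Without HRD1Alb refed replicate 2 it was 10 genes, all lower (11.9% of all genes were then lower), and without replicate 1 it was 17, of which 15 were lower (28% of all genes were then lower and 25.8% higher). The remaining WT refed sample was likewise assumed to vary like the other groups, as was any lone sample of an arm below. Without either library of WT refed, HRD1Alb fasted or WT fasted livers the count fell, as did the shares of all genes called. It was 0 in a fit of the 4 refed samples alone, where 0% of all genes passed. The fasted count rose to 8 (3 higher and 5 lower, with 10.1% to 10.3% of all genes higher and 11.8% to 11.9% lower) without either of the HRD1Alb refed libraries, neither of which enters that contrast but both of which enter the estimate of the spread, and to 5 with the 4 fasted samples alone (8.24% of all genes higher and 6.31% lower).

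Averaged over both feeding states, 5 receptor genes were lower in HRD1Alb livers, namely Thrb, Nr3c2, Esr1, Rxra and Nr1h4, and none was higher (7.76% and 11.3% of all genes tested). Without HRD1Alb refed replicate 2 the count was 13, of which 10 were lower, among them all 5 (18.7% of all genes were then higher and 19.5% lower). Without replicate 1 it was 16, of which 14 were lower (25.6% and 29.4%). The count fell without any library of another group, as did the shares of all genes called. The 4 HRD1Alb samples lay below all 4 WT samples for 6 members, Esr1, Nr3c1, Nr3c2, Nr5a2, Rxra and Thrb, where 9.71% of all tested genes did so, and above them for Rarg alone, where 11.8% did so. An exact permutation test over the samples, two-sided, cannot go below p = 0.333 with 2 against 2 samples or p = 0.0286 with 4 against 4.

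Among the hormone receptors, Thrb (chr14:17660261-18038090, plus strand, here and below on GRCm38), the main thyroid hormone receptor of hepatocytes, was at 43.3 and 43.0 CPM in WT fasted, 35.3 and 34.3 in HRD1Alb fasted, 58.9 and 56.1 in WT refed, and 24.7 and 16.3 in HRD1Alb refed livers. Both HRD1Alb samples lay below both WT samples in each feeding state, and the gap was wider after refeeding. The log2 fold change was -0.31 (SE 0.21, adjusted p = 0.485) fasted and -1.49 (SE 0.21, adjusted p = 0.0125) refed, and the refed value was -1.22 (adjusted p = 0.00119) without HRD1Alb refed replicate 2. The difference between the feeding states was -1.18 on the log2 scale (SE 0.29, adjusted p = 0.557). Thra, from 4.91 to 14.1 CPM, had a log2 fold change of -0.42 (SE 0.30) in refed livers and did not pass.

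Nr3c2 (chr8:76899442-77245012, plus strand), the mineralocorticoid receptor, which also binds glucocorticoids, was at 6.80 and 7.03 CPM in WT fasted, 3.64 and 3.43 in HRD1Alb fasted, 12.8 and 11.1 in WT refed, and 3.82 and 1.10 in HRD1Alb refed livers. No HRD1Alb sample reached a WT sample. It had the largest refed log2 fold change in size of the tested members, -2.27 (SE 0.50, adjusted p = 0.0329), which was -1.64 (adjusted p = 0.00273) without HRD1Alb refed replicate 2. Over both states it was -1.62 (SE 0.34, adjusted p = 0.0203). Esr1 (chr10:4611593-5005614, plus strand), the estrogen receptor alpha, showed the same order, at 15.2 and 21.1 CPM in WT fasted, 13.1 and 8.28 in HRD1Alb fasted, 21.9 and 22.1 in WT refed, and 9.34 and 3.71 in HRD1Alb refed livers. Its log2 fold change was -1.75 (SE 0.44, adjusted p = 0.0444) refed, or -1.23 (adjusted p = 0.0265) without that library, and -1.26 (SE 0.30, adjusted p = 0.0298) over both states. Nr3c1, at 75.0 and 85.9 CPM in WT fasted, 53.2 and 64.4 in HRD1Alb fasted, 93.4 and 94.9 in WT refed, and 71.7 and 40.6 in HRD1Alb refed livers, was also below WT in every HRD1Alb sample. Its log2 fold change over both states of -0.60 (SE 0.19) missed the threshold (adjusted p = 0.0649).

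In the bile acid axis, Rxra (chr2:27676440-27762957, plus strand) was at 475 and 500 CPM in WT fasted, 376 and 404 in HRD1Alb fasted, 433 and 423 in WT refed, and 260 and 294 in HRD1Alb refed livers. As the second most abundant member by CPM, it was lower in all 4 HRD1Alb samples. The log2 fold change was -0.63 (SE 0.15, adjusted p = 0.041) refed and -0.48 (SE 0.11, adjusted p = 0.0238) over both states. The refed value was -0.72 (adjusted p = 0.00809) without HRD1Alb refed replicate 2 and -0.56 (adjusted p = 0.0509) after a correction for exon length. The other RXR genes did not follow: Rxrb ranged from 30.7 to 42.4 CPM and Rxrg from 8.13 to 18.1 CPM, with refed log2 fold changes of 0.17 (SE 0.15) and 0.12 (SE 0.33), neither past the threshold.

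Nr1h4 (chr10:89454234-89533585, minus strand), the receptor that senses bile acids, was at 224 and 210 CPM in WT fasted, 151 and 147 in HRD1Alb fasted, 246 and 273 in WT refed, and 148 and 218 in HRD1Alb refed livers. The highest HRD1Alb value, from the library that stood apart, lay between the WT values. The genotype difference was -0.54 (SE 0.20, adjusted p = 0.22) fasted, -0.50 (SE 0.20, adjusted p = 0.135) refed and -0.52 (SE 0.14, adjusted p = 0.0441) over both states, where it was -0.67 (adjusted p = 0.00123) without that library. Nr5a2, the receptor LRH-1 that drives genes of bile acid synthesis, was at 44.9 and 55.4 CPM in WT fasted, 37.7 and 44.0 in HRD1Alb fasted, 61.7 and 52.3 in WT refed, and 37.5 and 11.3 in HRD1Alb refed livers. Its refed log2 fold change of -1.22 (SE 0.48, adjusted p = 0.124) did not pass.

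Nr0b2 (chr4:133553376-133556536, plus strand), the SHP repressor that FXR is known to induce and that lacks a DNA-binding domain of its own, changed places between feeding states. It was at 11.8 and 15.5 CPM in WT fasted, 28.5 and 23.7 in HRD1Alb fasted, 36.3 and 31.0 in WT refed, and 18.0 and 14.7 in HRD1Alb refed livers. HRD1Alb samples were above WT when fasted and below WT when refed, with no overlap in either state. The log2 fold change by genotype was 0.93 (SE 0.21, adjusted p = 0.0835) fasted and -1.04 (SE 0.21, adjusted p = 0.0286) refed, and without HRD1Alb refed replicate 2 these were 0.93 (adjusted p = 0.0114) and -0.90 (adjusted p = 0.0203). By feeding, Nr0b2 rose in WT livers, by 1.30 (SE 0.21, adjusted p = 0.0334), and its value in HRD1Alb livers was -0.68 (SE 0.21, adjusted p = 0.0827). The rise in WT livers did not pass after the correction for exon length (adjusted p = 0.109).

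The interaction of genotype and feeding for Nr0b2 was -1.97 on the log2 scale (SE 0.30, unadjusted p = 0.000245 in the edgeR fit), the smallest p of the receptor genes, and did not pass after adjustment (adjusted p = 0.531). No gene of the 14379 passed the interaction test (0% of genes), with 8.42% of all genes and 5 receptor genes at an unadjusted p under 0.05. DESeq2 called 1 receptor gene in this contrast, Nr0b2 (0.442% of all genes were higher and 0.36% lower). Without HRD1Alb refed replicate 2 edgeR called 2, Nr0b2 (adjusted p = 0.0429) and Thrb (adjusted p = 0.0429), with 0.483% of all genes higher and 0.252% lower. Without replicate 1 it called 14, with 16.1% of all genes higher and 18.3% lower.

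**Figure D4:**
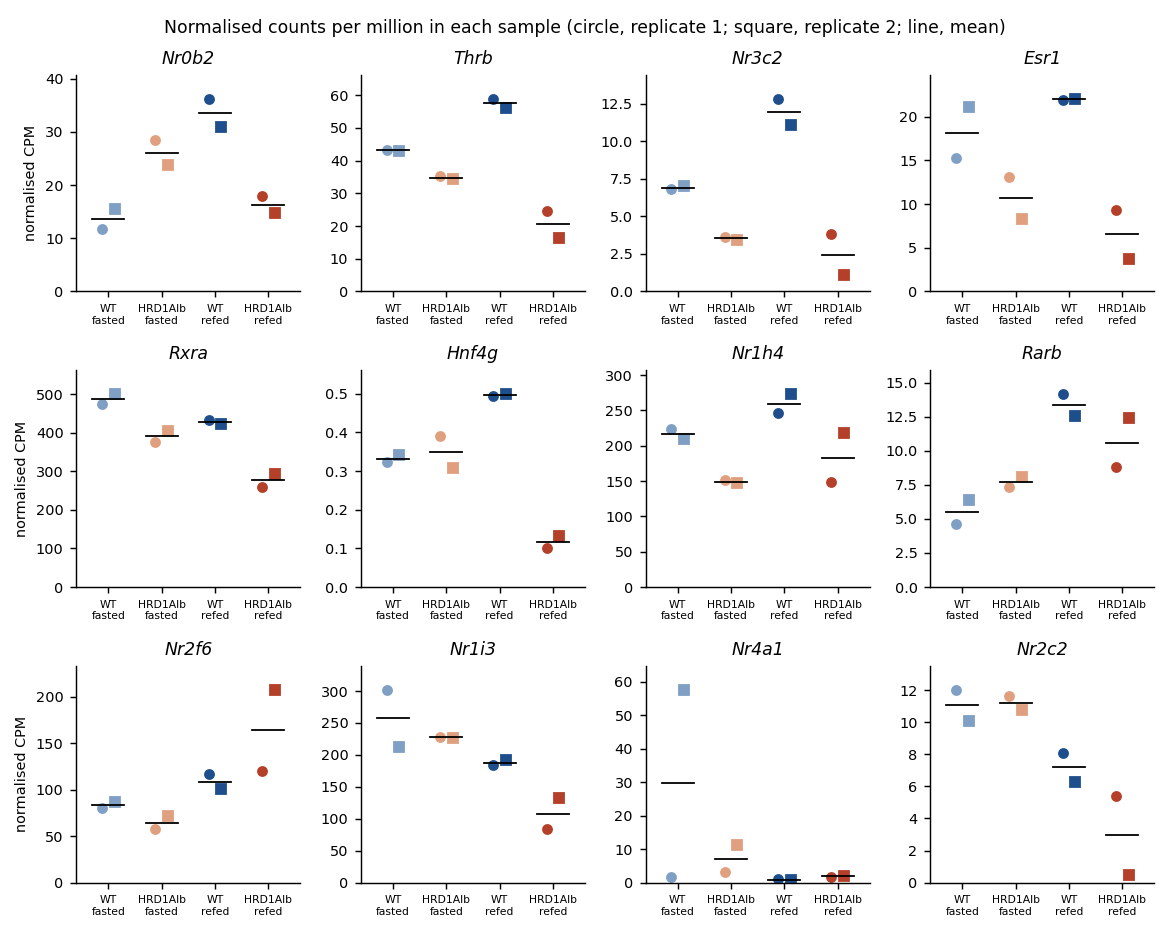
Normalised CPM (y axis, from 0) in each sample for 12 receptor genes, by group (circles, replicate 1, squares, replicate 2, line, mean of the 2 samples). Thrb, Nr3c2, Esr1 and Rxra are lower in every HRD1Alb sample, Nr0b2 is higher in HRD1Alb when fasted and lower when refed, and Nr4a1 is high in 1 WT fasted sample (57.6 CPM).

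Hnf4g (chr3:3508030-3658052, plus strand), a close relative of Hnf4a, was at 0.324 and 0.341 CPM in WT fasted, 0.391 and 0.309 in HRD1Alb fasted, 0.494 and 0.499 in WT refed, and 0.102 and 0.132 in HRD1Alb refed livers. Only the HRD1Alb refed samples were low, but the gene rests on between 6 and 20 counts a sample. The refed log2 fold change was -2.08 (SE 0.43, adjusted p = 0.0292), or -2.26 (adjusted p = 0.0261) without HRD1Alb refed replicate 2. Hnf4a itself was at 809 and 621 CPM in WT fasted, 549 and 585 in HRD1Alb fasted, 733 and 563 in WT refed, and 512 and 339 in HRD1Alb refed livers. Its HRD1Alb samples were below the WT samples of the same feeding state, and its refed log2 fold change was -0.61 (SE 0.25, adjusted p = 0.144).

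Refeeding was compared within each genotype. In WT livers 2 receptor genes rose, Nr0b2 and Rarb, and none fell (1.2% of all genes tested rose and 1.39% fell). In HRD1Alb livers Nr2f6 rose and Nr1i3 fell (5.42% of all genes rose and 5.01% fell). These comparisons also depended on single libraries. In WT livers the count rose without either HRD1Alb refed library and fell without any other library, as did the shares of all genes called. In HRD1Alb livers it was 6 without HRD1Alb refed replicate 2 (11% of all genes higher and 9.25% lower) and 24 without replicate 1 (25.5% and 27%). It fell without any of the other 6, as did the shares of all genes called.

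Rarb (chr14:16430839-16819156, minus strand), whose promoter holds the repeat shown above, was at 4.64 and 6.35 CPM in WT fasted, 7.35 and 8.08 in HRD1Alb fasted, 14.2 and 12.6 in WT refed, and 8.78 and 12.4 in HRD1Alb refed livers. Refeeding raised it in WT livers by 1.28 on the log2 scale (SE 0.25, adjusted p = 0.0472), and in HRD1Alb livers the value was 0.46 (SE 0.25, adjusted p = 0.237). The WT rise was just short of the threshold with the replicate number as a block (adjusted p = 0.0504). Exons of Top2b and Gm48162 on the other strand overlap 38.4% of Rarb exon. Top2b, at between 72.5 and 89.6 CPM in WT livers, had a log2 fold change of -0.26 (SE 0.17, adjusted p = 0.525) with refeeding, and the part of reads from either gene in the value of Rarb was not tested. Rara, from 17.9 to 26.8 CPM, and Rarg, from 5.36 to 9.29 CPM, did not pass in any contrast. Rarg was higher in every HRD1Alb than in every WT sample, with a log2 fold change over both states of 0.45 (SE 0.16, adjusted p = 0.0949).

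Nr1i3 (chr1:171213970-171220701, plus strand), the xenobiotic receptor CAR, was at 302 and 212 CPM in WT fasted, 228 and 227 in HRD1Alb fasted, 184 and 192 in WT refed, and 83.8 and 132 in HRD1Alb refed livers. It fell with refeeding in HRD1Alb livers by 1.07 on the log2 scale (SE 0.26, adjusted p = 0.0425), or by 1.44 (adjusted p = 0.00463) without HRD1Alb refed replicate 2, while the WT value was -0.45 (SE 0.26, adjusted p = 0.458). Exons of Tomm40l on the other strand cover 74.9% of Nr1i3 exon. Tomm40l was at 253 and 177 CPM in WT fasted, 210 and 238 in HRD1Alb fasted, 149 and 166 in WT refed, and 59.7 and 117 in HRD1Alb refed livers. It fell by 1.34 (SE 0.32, adjusted p = 0.0432) in the same contrast. The strand used in counting is not given in the sources used here, so that reads of these genes cannot be told apart. Nr1i2, the other xenobiotic receptor, ranged from 58.2 to 96.8 CPM and passed in no contrast.

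Nr2f6 (chr8:71374123-71381960, minus strand), an orphan receptor of the COUP-TF family, was at 79.9 and 86.5 CPM in WT fasted, 57.2 and 71.7 in HRD1Alb fasted, 117 and 101 in WT refed, and 120 and 208 in HRD1Alb refed livers. The highest value came from the library that stood apart. The rise with refeeding in HRD1Alb livers was 1.35 (SE 0.27, adjusted p = 0.0272), and 0.90 (adjusted p = 0.00927) without that library. Ocel1 on the other strand, whose exons cover 54.4% of Nr2f6 exon, was between 4.81 and 7.04 CPM in 7 samples and at 13.8 in HRD1Alb refed replicate 2. Its value in the same contrast was 0.94 (SE 0.32, adjusted p = 0.1), in the direction of Nr2f6, and reads of the overlapping exons cannot be told apart. Its relatives Nr2f1, from 0.42 to 1.12 CPM, and Nr2f2, from 32.3 to 65.5 CPM, passed in no contrast.

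The receptors of the NR4A family are immediate-early genes known to be induced rapidly by hormones and stress. Nr4a1 (chr15:101254269-101274795, plus strand), whose promoter is shown above, was at 1.64 and 57.6 CPM in WT fasted, 3.25 and 11.1 in HRD1Alb fasted, 0.939 and 0.709 in WT refed, and 1.79 and 1.95 in HRD1Alb refed livers. WT fasted replicate 2 lay far above every other sample, including the other WT fasted sample. Its log2 fold change with refeeding in WT livers was -5.16 (SE 1.49, adjusted p = 0.138), and it was -0.96 without WT fasted replicate 2. The fasted genotype value of -2.05 (SE 1.25, adjusted p = 0.442) turned to 2.16 without that sample. In the same sample Dusp1, an immediate-early phosphatase, was at 73.8 CPM beside 12.7 in the other WT fasted sample, but also at 35.9 and 56.2 CPM in HRD1Alb fasted livers. Fos, chosen after its values were seen, was at 25.3 beside 0.424 CPM in the WT fasted samples. Egr1 and Junb were at 75.4 beside 17.1 and at 85.6 beside 18.0 CPM there. Egr1 was also at 46.5 and 137 CPM in HRD1Alb refed beside 12.7 and 6.33 in WT refed livers. Its refed genotype log2 fold change was 3.27 (SE 0.82, adjusted p = 0.0448). Fos was at 6.01 and 5.66 beside 0.371 and 0.893 CPM in the same groups. Fos and Junb did not pass by genotype in refed livers (adjusted p = 0.17 and 0.234). Nor did Dusp1, whose value was -0.30 (SE 0.69, adjusted p = 0.771). Nr4a2 was at 0.523 and 1.17 CPM in WT fasted, 0.684 and 0.726 in HRD1Alb fasted, 0.321 and 0.184 in WT refed, and 0.694 and 0.241 in HRD1Alb refed livers. Its refeeding value in WT livers of -1.73 (SE 0.65, adjusted p = 0.247) did not pass.

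The largest fasted rise by size was that of Esrrg, an estrogen-related receptor, at 2.84 and 5.35 CPM in WT fasted, 10.8 and 10.1 in HRD1Alb fasted, 1.85 and 4.05 in WT refed, and 6.04 and 2.15 in HRD1Alb refed livers. Fasted HRD1Alb samples were clear of fasted WT samples, while the refed groups overlapped. The fasted log2 fold change was 1.35 (SE 0.56, adjusted p = 0.259). Nr2c2, the testicular receptor TR4, was at 12.0 and 10.1 CPM in WT fasted, 11.7 and 10.8 in HRD1Alb fasted, 8.08 and 6.31 in WT refed, and 5.43 and 0.461 in HRD1Alb refed livers. Its refeeding value in HRD1Alb livers, -1.91 (SE 0.83, adjusted p = 0.161), drew on the sample at 0.461. Exons of Mrps25 and Gm44249 on the other strand overlap 31.2% of its exon. Of the members not yet described, Nr1h2 (LXR beta) was between 35.6 and 63.8 CPM, Nr1h3 between 91.0 and 218, Esrra between 33.3 and 59.2, Nr2c1 between 11.4 and 21.6, and Nr6a1 between 7.98 and 18.5 CPM. Ppard was between 6.16 and 10.6, Nr1h5 between 3.12 and 8.11, Rora between 0.395 and 9.82 and Esrrb between 0.351 and 0.609 CPM. None of these passed in any contrast.

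Genes that these receptors are known to control were counted in lists, to be read against 11.3% of all genes higher and 7.76% lower over both feeding states. Those shares hold for the fit of all 8 samples. Without HRD1Alb refed replicate 2 larger shares of all genes passed, given above, and the list counts of that fit are to be read against them. The lists were not tested against other genes. Over both feeding states 6 of 9 measured targets of FXR and SHP were lower and none was higher in HRD1Alb livers, with a median log2 fold change of -0.69 beside 0.01 for all genes. Cyp7a1, the rate-limiting enzyme of bile acid synthesis, was at 271 and 370 CPM in WT fasted, 111 and 85.3 in HRD1Alb fasted, 461 and 469 in WT refed, and 302 and 252 in HRD1Alb refed livers. Its fasted log2 fold change was -1.71 (SE 0.22, adjusted p = 0.0267). Cyp8b1, which makes cholic acid, fell by 1.69 (SE 0.27, adjusted p = 0.00837) over both states. Slc10a1, the bile acid importer, fell by 1.04 (SE 0.19, adjusted p = 0.013), and Baat, which conjugates bile acids, fell by 0.52 (SE 0.11, adjusted p = 0.0214). SHP is known to repress Cyp7a1 and Cyp8b1, and FXR to induce other genes of this list, so that its members do not share a direction of control. Without HRD1Alb refed replicate 2 the count was again 6 lower and none higher.

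Of 16 HNF4A targets 6 were lower and none was higher over both states, with a median of -0.57, and without HRD1Alb refed replicate 2 the count was 15 lower. They included the clotting factor gene F9 (log2 fold change -0.84, SE 0.11, adjusted p = 0.0054) and Apob, the structural protein of lipoproteins (-0.99, SE 0.14, adjusted p = 0.00681). Also lower were Otc of the urea cycle (-0.84, SE 0.13, adjusted p = 0.00826) and Mttp, which loads lipid onto Apob (-0.79, SE 0.13, adjusted p = 0.0103). Hepatocyte markers had a median of -0.55, with 1 of 9 lower, and 5 of 9 without HRD1Alb refed replicate 2. Enzymes that make or inactivate receptor ligands were lower in 6 of 17 cases and higher in 1, with a median of -0.36, and in 8 and 3 of the 16 tested without that library. Srd5a1, which converts testosterone to its more potent form, fell by 1.96 (SE 0.20, adjusted p = 0.00278), and Hsd11b1, which regenerates active glucocorticoid, by 1.19 (SE 0.16, adjusted p = 0.00542). Cyp46a1, which makes an oxysterol, fell by 1.65 (SE 0.27, adjusted p = 0.00971), and Cyp27a1, an enzyme of bile acid and oxysterol synthesis, by 0.76 (SE 0.11, adjusted p = 0.00634).

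Targets of CAR and PXR moved in both directions, with 6 of 19 higher and 2 lower, a median of 0.25, and 7 higher and 6 lower without HRD1Alb refed replicate 2. Cyp2b10, the classical CAR target, was at 72.5 and 62.0 CPM in WT fasted, 236 and 120 in HRD1Alb fasted, 23.6 and 17.9 in WT refed, and 181 and 85.9 in HRD1Alb refed livers. It rose by 2.04 (SE 0.30, adjusted p = 0.00723) over both states, as did the glutathione transferases Gstm2 (1.46, SE 0.22, adjusted p = 0.00728) and Gsta1 (3.08, SE 0.53, adjusted p = 0.0111), whereas Cyp2c29 fell by 1.25 (SE 0.15, adjusted p = 0.00394).

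LXR targets split evenly, with 2 of 12 higher and 2 lower (4 and 4 without HRD1Alb refed replicate 2). Lpl, which releases fatty acids from lipoproteins, and Abcg1, a cholesterol exporter that macrophages also express, rose by 2.32 (SE 0.18, adjusted p = 0.00157) and 1.31 (SE 0.18, adjusted p = 0.00566). The sterol exporters Abca1 and Abcg8 fell by 0.77 (SE 0.20, adjusted p = 0.0344) and 0.65 (SE 0.17, adjusted p = 0.0377). Thyroid hormone receptor targets also split, with 2 of 9 higher, Fgf21, a fasting hormone of liver, by 2.82 (SE 0.15, adjusted p = 0.000441) and Hr, a corepressor, by 2.46 (SE 0.38, adjusted p = 0.00808). The 2 that fell (3 higher and 3 lower without that library) were Me1, malic enzyme, by 0.84 (SE 0.12, adjusted p = 0.00654) and Dio1, which activates thyroid hormone, by 0.95 (SE 0.23, adjusted p = 0.0298). Of 14 glucocorticoid receptor targets 4 were higher and 1 lower (4 and 3 without HRD1Alb refed replicate 2). There was a rise of 2.80 (SE 0.26, adjusted p = 0.00193) for the estrogen sulfotransferase Sult1e1 and a fall of 0.66 (SE 0.14, adjusted p = 0.0191) for Pck1 of gluconeogenesis. With refeeding 4 of the 14 fell in WT and 9 fell in HRD1Alb livers (1.39% and 5.01% of all genes), Pck1 by 3.04 (SE 0.21, adjusted p = 0.00502) and 3.40 (SE 0.21, adjusted p = 0.00188). Of 10 targets of the estrogen-related receptors 1 rose, Pdk4, which blocks glucose oxidation, by 1.55 (SE 0.31, adjusted p = 0.0159), and without that library 1 rose and 3 fell.

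Retinoic acid receptor targets, a list that holds Rarb itself, were higher in 1 and lower in 2 of 8 measured cases by genotype over both states. Cyp26a1, the enzyme that degrades retinoic acid, fell by 0.97 (SE 0.25, adjusted p = 0.0378), with Dhrs3 lower by a log2 fold change of -0.44 (SE 0.11, adjusted p = 0.0363). By feeding, 3 of the 8 rose in WT livers, Rarb, Cyp26a1 and Cyp26b1, where 1.2% of all genes rose. Cyp26a1 was at 3.91 and 8.79 CPM in WT fasted and 107 and 76.9 in WT refed livers, and at 3.46 and 2.92 in HRD1Alb fasted and 50.7 and 44.4 in HRD1Alb refed livers. Refeeding raised it by 3.85 (SE 0.39, adjusted p = 0.0119) in WT and by 3.90 (SE 0.40, adjusted p = 0.00419) in HRD1Alb livers. Cyp26b1, of the same enzyme family, rose by 3.10 (SE 0.46, adjusted p = 0.0283) in WT livers, with a value of 1.20 (SE 0.43, adjusted p = 0.113) in HRD1Alb livers.

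Of 30 coactivators and corepressors, the proteins through which receptors switch genes on or off, 4 were higher and 2 lower over both states, close to the 11.3% and 7.76% of all genes, with a median of -0.37. Ncoa7 rose by 1.42 (SE 0.19, adjusted p = 0.00565), Hr by the value above and Prmt1, a coactivating methyltransferase, by 0.49 (SE 0.13, adjusted p = 0.0404). Prmt1 was at 36.0 and 47.8 CPM in HRD1Alb refed livers and between 16.8 and 20.5 CPM in every other sample. Without HRD1Alb refed replicate 2 the count was 4 higher and 8 lower. As for the receptors, the genotype counts of every list depended on single libraries, while the refeeding counts of the lists were not examined in this way. Over both states the number past the threshold in each of these lists changed with the library left out. The highest numbers came without HRD1Alb refed replicate 1 or 2, when larger shares of all genes passed than with all 8 samples. The lowest came without a library of another group, when smaller shares of all genes passed.

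**Figure D5:**
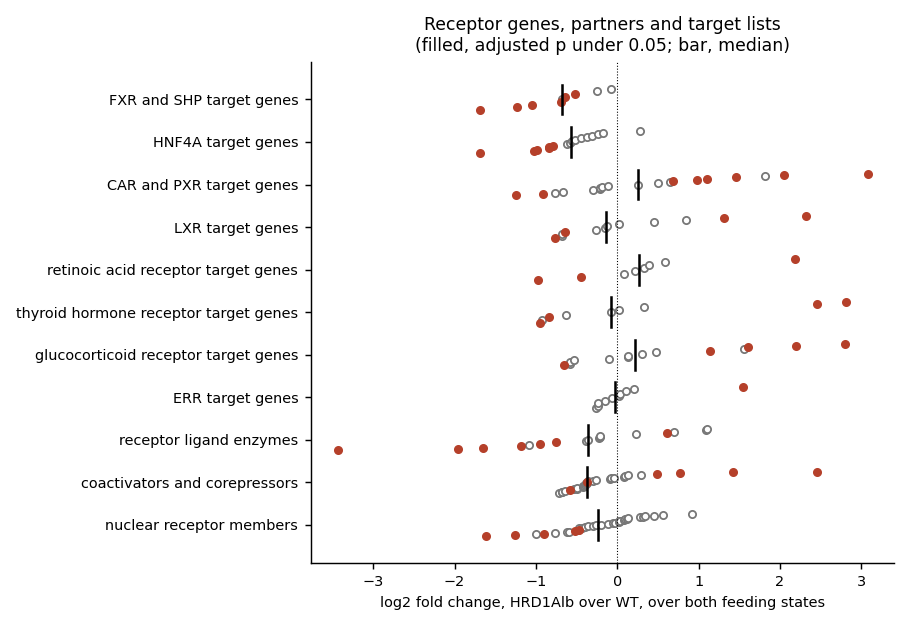
Log2 fold change of HRD1Alb over WT livers over both feeding states (x axis) for the genes of 11 lists (rows, 1 point per tested gene, filled where the adjusted p is under 0.05, bar at the median). The lists of FXR and SHP targets and of HNF4A targets lie to the left, with medians of -0.69 and -0.57, and the receptor genes themselves have a median of -0.23.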

How the data were processed

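Total RNA from 8 livers (4 groups, 2 samples each) was sequenced on a NextSeq 500 with 1 lane per sample. The authors deposited raw counts per gene symbol, 1 file per sample, which their methods say were counted with ERANGE, while the submitters' processing notes list cutadapt, STAR, HTSeq, DESeq2 and the build mm10, without versions. Which of these made the deposited counts, and whether counting used strand, is not given in the sources used here. No replicates were pooled, no 2 samples had identical counts (0 pairs), and 0 columns belonged to another series. Total counts ranged from 40210576 to 49117080.

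Genes with 10 or more counts in at least 2 samples (14379) were fitted with the quasi-likelihood test of edgeR 4.0.16 in R 4.3.3, with TMM normalisation (factors 0.837 to 1.22), 1 coefficient per group over all 8 samples, and Benjamini-Hochberg adjustment over all genes tested. Every adjusted p in the text comes from this fit unless DESeq2 is named, and a gene passed at an adjusted p under 0.05. SEs were derived from the log2 fold change and its F statistic, and 95% intervals from the t distribution with the degrees of freedom of the fit (median 7.38). CPM are counts over the normalised library size, and floors and intervals on counts cover counting error only. The 6 contrasts share samples, so their results are not independent. Exon lengths, coordinates and overlaps on the other strand come from GENCODE M21 on GRCm38 (22857 of 23337 symbols matched, 97.9%), and promoter sequences from RefSeq on GRCm38.p6.

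All 37 genes could be named. Values in every sample were given for genes past the threshold in any contrast and for the 3 of largest size per contrast, and of each other list at most 4 genes past the threshold in a genotype contrast by smallest p. Cyp26b1, Dusp1, Fos, Egr1, Junb and the genes on opposite strands were named beside a result they touch. Some items that meet this rule are not reported here. The genes and lists were chosen with earlier results of these data known. Alternatives were RLE normalisation, the DESeq2 1.42.0 Wald test, no filter, the filter of edgeR, the replicate number as a block, each library left out, only the 4 samples compared, and a correction for exon length with and without the block. List counts under these alternatives were added after seeing the data. The scripts were tested on simulated data, and figures were drawn with matplotlib 3.10.9 in Python 3.11.15.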

Additional observations from a re-analysis of the deposited data

Results flagged for a closer look

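For 8 receptor genes every sample moved one way in one group and the opposite way in the other, under the genotype contrast in fasted and refed livers or under refeeding in WT and HRD1Alb livers. The same was seen for 818 of all tested genes (5.69%) by genotype and 749 (5.21%) by refeeding, each counted separately. The 8 receptor genes were found by either, and that share was not computed for all genes. The difference was tested by the interaction of genotype and feeding in edgeR, and for none of the 8 did it pass (adjusted p between 0.531 and 0.64). Nr0b2, with an interaction of -1.97 on the log2 scale, was higher in HRD1Alb when fasted and lower when refed, and it rose with refeeding in WT and was lower after refeeding in HRD1Alb livers. Nr2c1, a testicular receptor with an interaction of -0.68, was opposite in both contrasts as well. By genotype alone, Rarb (-0.82) was higher in fasted and lower in refed HRD1Alb livers, and Nr2f6 (0.96) and Rxrb (0.31) were lower in fasted and higher in refed HRD1Alb livers. By refeeding alone, Hnf4g (-2.15) and Thrb (-1.18) were higher after refeeding in WT and lower in HRD1Alb livers, and Nr2f1 (1.15) was lower in WT and higher in HRD1Alb livers.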

How the results depend on the processing

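With 2 samples per group, calls depended on the libraries in the fit. Leaving out each library in turn gave between 0 and 8 receptor genes past the threshold by genotype in fasted livers, 0 and 17 in refed livers, 0 and 16 over both states, 0 and 8 for refeeding in WT, 0 and 24 for refeeding in HRD1Alb livers, and 0 and 14 for the interaction. The highest counts in refed HRD1Alb comparisons came without HRD1Alb refed replicate 1, when the sample whose counts fell with gene length stood alone. In every contrast the highest counts came from fits in which larger shares of all genes passed than with all 8 samples. The DESeq2 Wald test called 1 gene in fasted livers (4.35% of all genes were higher and 3.21% lower). It called 8 for refeeding in HRD1Alb (11.1% and 9.99%) and 1 for the interaction (0.442% and 0.36%). Using only the 4 samples compared gave 5 in fasted livers (8.24% of all genes higher and 6.31% lower) and 0 in refed livers (0% and 0%). It gave 6 for refeeding in WT (6.74% and 7.18%) and 0 in HRD1Alb (0% and 0%). RLE normalisation gave 1 for refeeding in WT (1.11% of all genes higher and 1.4% lower). The length correction gave 1 for refeeding in WT (2.25% of all genes higher and 2.64% lower) and 5 in HRD1Alb (7.32% and 7.35%). Together with the replicate block it gave 8 over both states (12.2% and 13.5%) and 1 for refeeding in WT (2.16% and 2.46%). The cause of these shifts was not tested, beyond the smaller number of samples.

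Samples with the same replicate number did not deviate together (correlations between 0.018 and 0.175), so the numbers were not taken to pair the samples. With the replicate block refeeding gave 1 call in WT (Nr0b2) and 1 in HRD1Alb livers (Nr2f6) in place of 2 each. Of all genes, 0.897% rose and 1.2% fell in WT, and 4.5% rose and 4.83% fell in HRD1Alb livers. By genotype 6 genes passed in refed livers (5.45% of all genes higher and 4.18% lower). Over both states 5 passed (10.5% and 7.68%), and both counts were the same as without the block. Of the log2 fold changes of single receptor genes under these alternatives, 307 kept their direction and side of the threshold, 95 lost and 19 gained a call with the same direction, and 2 reversed. Both were Nr4a1 without WT fasted replicate 2, by genotype in fasted livers (2.16, range over single libraries left out -3.19 to 2.16) and in the interaction (-0.97, range -0.97 to 4.37). Depth limits Hnf4g, Nr4a2, Nr2f1 and Esrrb, with between 6 and 64 counts a sample.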

Other observations

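Of the cell types whose markers were not described above, endothelial markers summed to between 186 and 237 CPM in WT and between 199 and 251 CPM in HRD1Alb livers, with a median log2 fold change over both feeding states of 0.14, and cholangiocyte markers to between 33.5 and 70.6 against between 30.2 and 54.8 CPM. The median of the cholangiocyte markers was -0.98 in fasted livers, where all 8 were negative, and 0.59 in refed livers, where 7 of 8 were positive, and that of their interaction was 1.53. None of these markers passed in any contrast. Their sum was 70.6 CPM in WT fasted replicate 2 beside 43.8 in replicate 1. Lymphocyte markers summed to between 8.93 and 12.2 CPM in WT and between 17.8 and 25.4 CPM in HRD1Alb livers, and 5 of 11 rose, where 11.3% of all genes did. Proliferation markers summed to between 5.52 and 7.25 against between 11.6 and 20.7 CPM, and 6 of 7 rose. The numbers of lymphocyte and proliferation markers that passed changed with the library left out, as did the shares of all genes. The part of these cell markers in the receptor results was not tested.

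Genes with a sex-biased level in mouse liver also differed. Of 11 male-biased liver genes 10 were lower in HRD1Alb livers over both states, with a median log2 fold change of -3.44, and of 12 female-biased genes 7 were higher, with a median of 3.11 (7.76% of all genes were lower and 11.3% higher). The Y-linked gene Ddx3y was between 55.2 and 121 CPM and Xist at most 0.508 CPM in the 8 samples. Each WT and each HRD1Alb sample thus held mRNA of a Y-linked gene.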
